A study of Mus musculus with 12 samples.

Results

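The Bcl2 family genes considered here are Bad, Bcl2l1, Bcl2l2, Bax, Bak1, Bid, Bcl2, Mcl1 and Bik, and their measurements were taken as all probes whose platform gene symbol is one of these 9 names. Of 20355 probes on the array, 16 met this rule, and they represent 6 of the 9 genes. Bcl2l1 had 5 probes, Bad and Bcl2 had 3 each, Bak1 and Mcl1 had 2 each, and Bid had 1, while no probe carried the symbol of Bcl2l2, Bax or Bik. The genes were measured in testis RNA of wildtype mice, of Wobbler mice (wr), and of Wobbler mice with a modifier (wr mod), all males on a Castaneus background. The Wobbler phenotype comes from a recessive missense change in Vps54, a gene for a subunit of a complex that tethers vesicles at the Golgi, and no probe carries its symbol. Neither the nature of the modifier nor the age of the animals is given in the sources used here. On each of 12 arrays with 2 channels a pool of RNA from 3 animals was hybridised against a pool of another genotype, with 4 arrays for each of the 3 pairs and the dyes exchanged on 2 of the 4.

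Proteins of the Bcl2 family decide at the mitochondrial outer membrane whether a cell enters apoptosis. Bcl2, Bcl-xL (the main product of Bcl2l1), Bcl-w (the product of Bcl2l2) and Mcl1 keep the membrane intact, Bax and Bak1 permeabilise it so that cytochrome c escapes, and the BH3-only proteins Bad, Bid and Bik act on these groups upstream. In the testis, germ cells die by apoptosis as part of normal spermatogenesis, and loss of Bax or Bcl2l2 in mice is known to disturb sperm production.

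All values below are log2 ratios of the first-named genotype over the second, turned so that dye-exchanged arrays read the same way, and 1 unit is a change by a factor of 2. Which sign means higher rests on the order of names in the array titles and on the usual Cy5 over Cy3 convention, so the direction of every ratio is only likely. Nothing in the labels says that the arrays of a comparison came from separate pools, so the p-values measure only how far arrays scatter, and that scatter may be technical. Each array held 18325 to 19584 usable spots. Ratios of 2 arrays of the same comparison correlated weakly across probes, with r between -0.01 and 0.20. Replicate 2 of Wobbler over wildtype stood apart, with an SD of its ratios of 1.61 against 0.62 to 0.99 on the other 11 arrays, and member ratios that moved by over 1.5 times without it are given both ways. The arrays give ratios and no level per gene, so the genes cannot be ranked by abundance.

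Among the Bcl2 family, 1 probe of Bad was called, with a higher ratio in testis of Wobbler mice with the modifier than in Wobbler testis. This was probe 20212, at 0.63 ± 0.12 (SE, n = 4 arrays), or 1.55-fold. The other 2 probes of Bad did not pass the test in that comparison, and no probe of Bcl2, Bcl2l1, Mcl1, Bak1 or Bid passed it in any comparison. A probe was called where its Benjamini-Hochberg adjusted p from a limma fit over all 18038 probes tested lay under 0.05. In bulk testis, fewer cells of a type and less RNA per cell cannot be told apart.

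Of the 16 probes, 13 had a value on at least 3 of the 4 arrays of every comparison and were tested. In Wobbler over wildtype 0 of these 13 were called, against 0.482% of all probes (87), and 3 of the 13 had an unadjusted p under 0.05, against 16.4% of all probes. For the modifier over wildtype 0 of 13 were called, against 0.915% (165), and 1 had an unadjusted p under 0.05, against 7.78%. For the modifier over Wobbler 1 of 13 was called, against 0.61% (110) in all and 0.238% (43) with a positive ratio, and 4 had an unadjusted p under 0.05, against 12.2%. At 13 probes, these shares do not set the family apart from the array as a whole.

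The median ratio of the 13 probes was -0.08 for Wobbler over wildtype, 0.05 for the modifier over wildtype and 0.26 for the modifier over Wobbler, where the medians of all probes were -0.02, 0.01 and 0.09. Positive ratios were found for 6, 10 and 11 of the 13 probes, against 48.4%, 52.8% and 62.4% of all probes. With each array centred on its median, the count in modifier over Wobbler was 8 of 13 and the members' median 0.20, while 53.0% of all probes were positive. The standard errors of the members' ratios ran from 0.10 to 0.36 with a median of 0.16, against medians of 0.21 over all probes in each comparison.

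**Figure D1:**
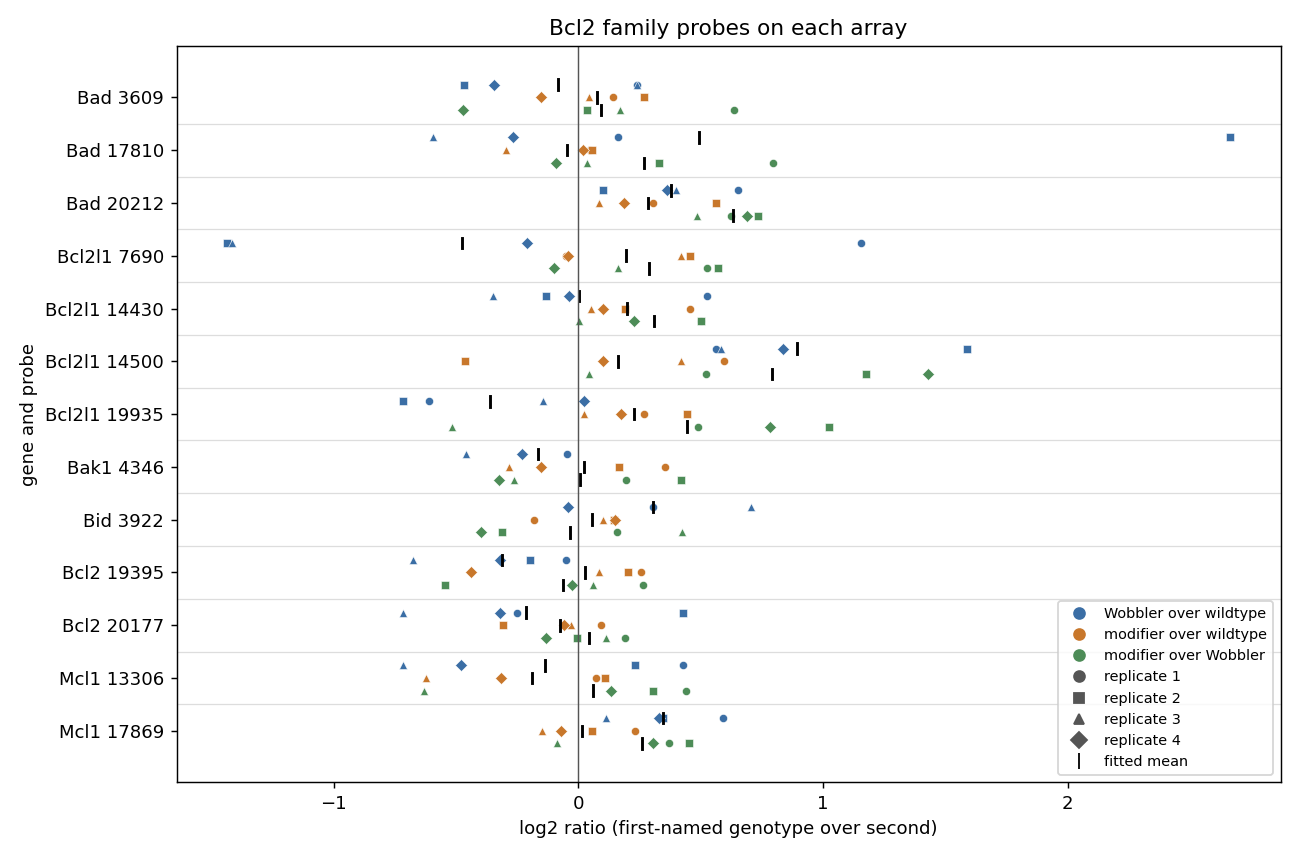
Log2 ratio of each of the 13 tested Bcl2 family probes on each array (x axis), with the probes on the y axis, colours for the 3 comparisons, symbols for the 4 replicates and a black bar for the fitted mean. Bad probe 20212 is the one member whose points all lie right of 0, from 0.09 to 0.74.

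The pro-survival genes are described first. Bcl2, the founding member, was read by probes 19395 and 20177, both annotated to the transcript NM_177410. On probe 19395 the ratios of Wobbler over wildtype were -0.05, -0.20, -0.67 and -0.32 in replicates 1 to 4. All 4 lay below 0, and the fitted ratio was -0.31 ± 0.16 (SE) with a 95% interval from -0.67 to 0.05 and an adjusted p of 0.355. On probe 20177 the same comparison gave -0.25, 0.43, -0.72 and -0.32, with replicate 2, the widest array, alone above 0. The fitted ratio was -0.21 ± 0.16 (adjusted p = 0.492), and without that array it was -0.41 ± 0.14 (adjusted p = 0.244).

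In the comparisons with the modifier, the fitted Bcl2 ratios lay closer to 0, but their 95% intervals overlapped those of Wobbler over wildtype. Against wildtype, probe 19395 gave 0.03 ± 0.16, with arrays from -0.44 to 0.26, and probe 20177 gave -0.08 ± 0.16, with arrays from -0.31 to 0.09. Against Wobbler, the fitted ratios were -0.06 ± 0.16 and 0.04 ± 0.16, and each probe was positive on 2 arrays and negative on the other 2. Their 95% intervals ran from -0.42 to 0.30 and from -0.30 to 0.39. The probes of Bcl2 differed by no more than 0.10 in any comparison, below the SE of that difference (0.22), and their ratios correlated at r = 0.43 (rho = 0.41) over the 12 arrays, which they share.

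The remaining Bcl2 probe, 20215, is annotated to NM_009741 and had a value on 5 of 12 arrays only. It read -0.57, 2.21 and 0.48 in replicates 1, 3 and 4 of modifier over wildtype. The other comparisons had 1 value each, -1.33 in Wobbler over wildtype and -1.37 in modifier over Wobbler. These readings span more than 3 units with no agreement in sign, and the probe was not tested.

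Bcl2l1, which encodes Bcl-xL and its shorter pro-apoptotic splice form Bcl-xS, was read by probes 7690, 14430, 14500 and 19935, all annotated to NM_009743. Its probes did not give a single picture in Wobbler over wildtype. Probe 14500 read 0.56, 1.59, 0.58 and 0.84, above 0 on all 4 arrays, with a fitted ratio of 0.89 ± 0.26 (95% interval 0.31 to 1.48, unadjusted p = 0.00685, adjusted p = 0.168). Without the widest array the ratio was 0.65 ± 0.28 (adjusted p = 0.363).

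Probe 7690 read 1.16, -1.44, -1.41 and -0.21 in the same comparison, a range of more than 2 units around a fitted ratio of -0.48 ± 0.35. Without replicate 2 its ratio was -0.04 ± 0.32. Probe 14430 read 0.53, -0.13, -0.35 and -0.04, with a fitted ratio of 0.00 ± 0.12, or 0.12 ± 0.13 without replicate 2. Probe 19935 read -0.61, -0.72, -0.14 and 0.02, with a fitted ratio of -0.36 ± 0.23, or -0.21 ± 0.26 without it. Apart from probe 14500, then, 1 of 4 arrays was positive for each Bcl2l1 probe, and none of the 4 probes was called.

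In modifier over Wobbler, all 4 tested Bcl2l1 probes had positive fitted ratios, and none was called. On probe 14500 the arrays read 0.52, 1.18, 0.05 and 1.43, with a fitted ratio of 0.79 ± 0.26 (unadjusted p = 0.0131, adjusted p = 0.263). Probe 14430 read 0.50, 0.50, 0.00 and 0.23, with a fitted ratio of 0.31 ± 0.12 (unadjusted p = 0.0329, adjusted p = 0.36). On probe 19935 the ratio was 0.45 ± 0.23, from arrays between -0.52 and 1.03, and on probe 7690 it was 0.29 ± 0.35, from arrays between -0.10 and 0.57. Replicate 3 gave the lowest reading on probes 14430, 14500 and 19935.

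Modifier over wildtype gave smaller Bcl2l1 ratios, from 0.16 ± 0.26 on probe 14500 to 0.23 ± 0.23 on probe 19935, with 0.20 ± 0.35 on probe 7690 and 0.20 ± 0.12 on probe 14430. Probes 14430 and 19935 were positive on all 4 arrays, from 0.05 to 0.46 and from 0.02 to 0.44. Their adjusted p-values were 0.948 and 1.

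The fifth Bcl2l1 probe, 20216, had a value on 6 of 12 arrays and was not tested. It read -0.49, 5.66 and 1.28 in replicates 1, 2 and 4 of Wobbler over wildtype, -0.12 in replicate 2 of modifier over wildtype, and 0.76 and 0.52 in replicates 3 and 4 of modifier over Wobbler. The reading of 5.66 came from the widest array. Over the 12 arrays, pairs of the tested Bcl2l1 probes correlated at r from -0.388 (probes 7690 and 14500) to 0.795 (probes 7690 and 14430).

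Mcl1, a short-lived pro-survival protein, was read by probes 13306 and 17869, both annotated to NM_008562. Probe 17869 read 0.59, 0.35, 0.11 and 0.33 in Wobbler over wildtype, above 0 on all 4 arrays. The fitted ratio was 0.34 ± 0.10 with a 95% interval from 0.11 to 0.58 (unadjusted p = 0.008, adjusted p = 0.175). In modifier over Wobbler it read 0.37, 0.45, -0.09 and 0.31, with a fitted ratio of 0.26 ± 0.10 (unadjusted p = 0.0314, adjusted p = 0.354), and in modifier over wildtype the ratio was 0.02 ± 0.10, with arrays on each side of 0.

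Probe 13306 of the same gene read 0.43, 0.23, -0.72 and -0.48 in Wobbler over wildtype. Its 2 arrays of one dye orientation were positive and the 2 of the other negative, and the fitted ratio was -0.13 ± 0.14. The same split appeared in modifier over wildtype, with 0.07 and 0.11 against -0.62 and -0.31 and a fitted ratio of -0.19 ± 0.14. Against Wobbler the fitted ratio was 0.06 ± 0.14, from arrays between -0.63 and 0.44. Before turning, this probe was positive on 11 of 12 arrays, and its dye term was 0.35 ± 0.08 (unadjusted p = 0.00127, adjusted p = 0.116). A dye term measures a shift with the dye whatever the genotype, and includes any offset of whole arrays. Over the 12 arrays the Mcl1 probes correlated at r = 0.75 (rho = 0.80). The dye term of probe 17869 was also positive, at 0.13 ± 0.06. Turned ratios still hold the dye effect, so a shared dye shift enters this correlation and those of the other genes.

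**Figure D2:**
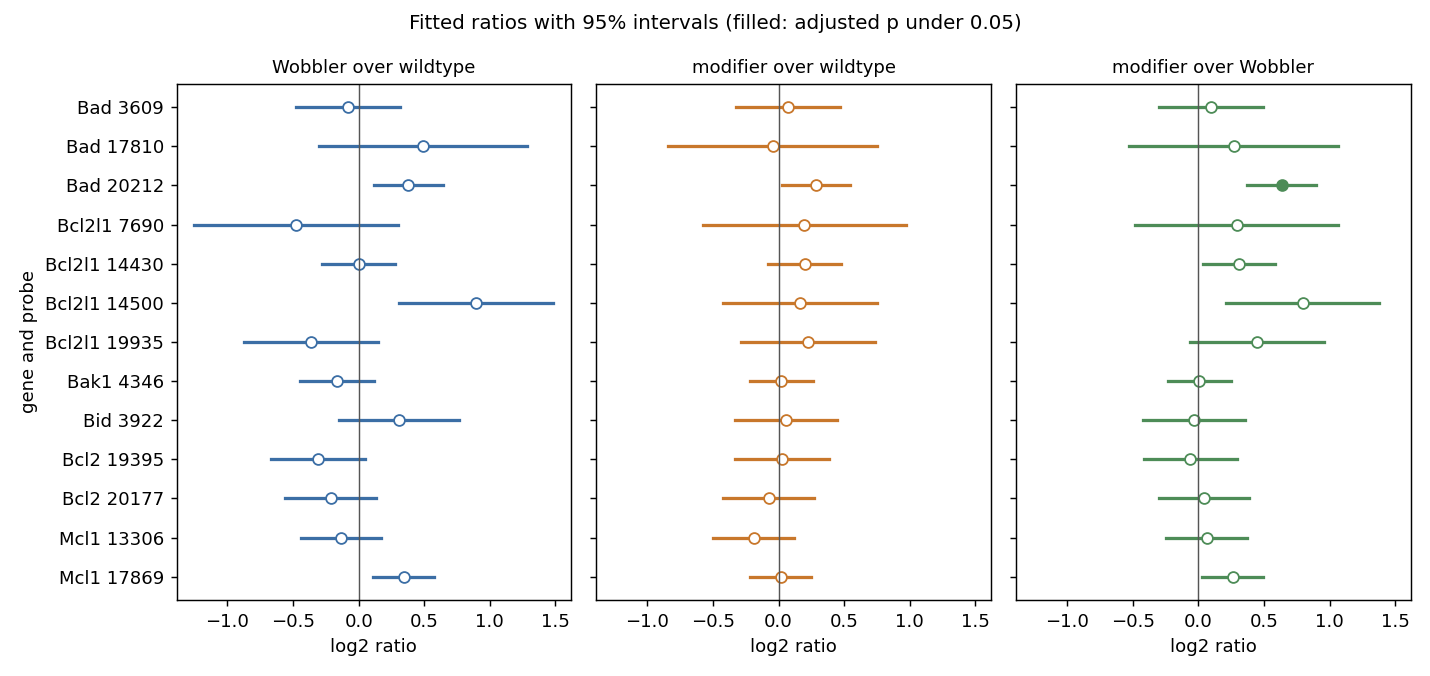
Fitted log2 ratio (x axis) with its 95% interval for each of the 13 tested probes (y axis), 1 panel per comparison, with a filled point where the adjusted p is under 0.05. The only filled point is Bad probe 20212 in modifier over Wobbler, at 0.63.

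Of Bax and Bak1, the listed members that permeabilise the membrane, only Bak1 had a probe. Probe 4346, annotated to NM_007523, gave ratios of -0.05, -0.46 and -0.23 in replicates 1, 3 and 4 of Wobbler over wildtype, with replicate 2 empty and a fitted ratio of -0.17 ± 0.12 (adjusted p = 0.508). Against wildtype the modifier gave 0.02 ± 0.11 and against Wobbler 0.01 ± 0.11, and the 95% interval of the latter ran from -0.23 to 0.25. In the comparisons with the modifier, replicates 1 and 2 were positive and replicates 3 and 4 negative. Its dye term was 0.24 ± 0.06 (unadjusted p = 0.00487, adjusted p = 0.13), and before turning it was positive on 10 of 11 arrays.

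Bak1 probe 20213 had a value on 8 of 12 arrays and was not tested. It read -3.45, -2.75 and 2.43 in Wobbler over wildtype, -3.60, 2.61 and -0.33 in modifier over wildtype, and -0.03 and -0.56 in modifier over Wobbler. Its readings within a comparison lay more than 6 units apart in modifier over wildtype, where those of probe 4346 stayed between -0.28 and 0.36.

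The BH3-only gene Bid, whose product is cleaved by caspase-8 and links death receptors to mitochondria, had a single probe, 3922 (NM_007544). It read 0.30, 0.71 and -0.04 in replicates 1, 3 and 4 of Wobbler over wildtype, with replicate 2 empty and a fitted ratio of 0.31 ± 0.20 (adjusted p = 0.456). Against wildtype the modifier gave -0.18, 0.15, 0.10 and 0.15, and the fitted ratio was 0.05 ± 0.17. Against Wobbler it gave 0.16, -0.31, 0.42 and -0.40 around a fitted ratio of -0.03 ± 0.17. The arrays of each comparison lay on each side of 0.

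Bad, whose product binds and neutralises Bcl2 and Bcl-xL unless phosphorylation holds it on 14-3-3 proteins, was read by probes 3609, 17810 and 20212, all annotated to NM_007522. In modifier over Wobbler, probe 20212 read 0.63, 0.74, 0.49 and 0.69. All 4 arrays were positive, in each dye orientation, and the lowest lay well above 0. The fitted ratio was 0.63 ± 0.12 with a 95% interval from 0.37 to 0.90, an unadjusted p of 0.000293 and an adjusted p of 0.0482, which placed it 109th by p among the 110 probes called.

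The same probe read 0.65, 0.10, 0.40 and 0.36 in Wobbler over wildtype, with a fitted ratio of 0.38 ± 0.12 (unadjusted p = 0.00887, adjusted p = 0.18). Set against wildtype, the modifier gave 0.31, 0.56, 0.09 and 0.19, with a fitted ratio of 0.29 ± 0.12 (unadjusted p = 0.035, adjusted p = 0.547). It was thus positive on 12 of 12 turned arrays. Its residual SD was 0.18 where the median over all probes was 0.42, and its dye term was 0.06 ± 0.07.

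The call of Bad probe 20212 lay close to the threshold. Leaving out each of the 12 arrays in turn kept it in 1 case, without replicate 2 of Wobbler over wildtype (adjusted p = 0.0225), and lost it in the other 11, with adjusted p-values from 0.0548 to 0.188, while the ratio stayed between 0.59 and 0.67. Of 12 other settings at the level of probes, 5 kept the call and 7 lost it.

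The other probes of Bad gave no such ratio. Probe 3609 read 0.64, 0.04, 0.17 and -0.47 in modifier over Wobbler, with a fitted ratio of 0.09 ± 0.18 and a 95% interval from -0.30 to 0.49. Probe 17810 read 0.80, 0.33, 0.04 and -0.09, with a fitted ratio of 0.27 ± 0.36 and an interval from -0.53 to 1.06. On each of them 3 of 4 arrays were positive, but the readings ran down to values below 0, and the interval of probe 3609 and that of probe 20212 overlap only from 0.37 to 0.49. With the probes of Bad averaged on each array, the ratio was 0.33 ± 0.11 and the adjusted p 0.309.

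In Wobbler over wildtype, probe 3609 read 0.24, -0.47, 0.24 and -0.35, and probe 17810 read 0.16, 2.67, -0.59 and -0.27. The reading of 2.67 came from the widest array. The fitted ratio of probe 17810 was 0.49 ± 0.36 with it and -0.16 ± 0.14 without it, and that of probe 3609 was -0.08 ± 0.18 with it and 0.10 ± 0.18 without it. Against wildtype the modifier gave ratios of 0.08 ± 0.18 on probe 3609 and -0.04 ± 0.36 on probe 17810. Across the 12 arrays, probe 20212 correlated with probe 3609 at r = 0.34 (rho = 0.24) and with probe 17810 at r = -0.23 (rho = 0.29).

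**Figure D3:**
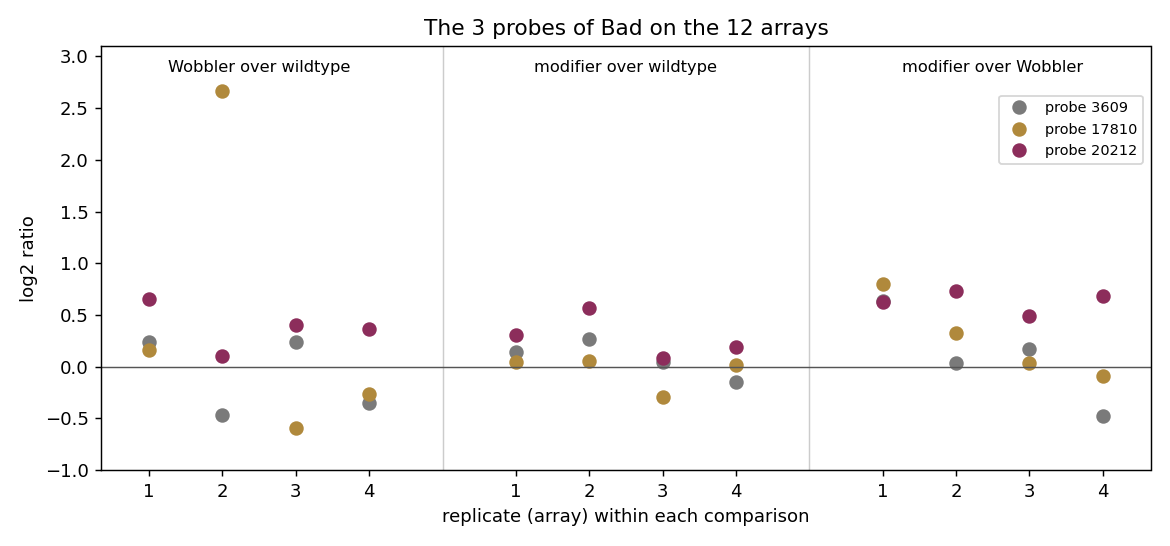
Log2 ratio (y axis) of the 3 probes of Bad on each of the 12 arrays (x axis, 4 replicates per comparison). Probe 20212 lies above 0 on every array, whereas probes 3609 and 17810 each fall below 0 on 4 arrays, and probe 17810 reads 2.67 on replicate 2 of Wobbler over wildtype.

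Whether probes of 1 gene differ was tested directly, by fitting the difference of their ratios on each array for all 4345 pairs of tested probes that share a symbol. This test was added after the values were seen. Among the 11 pairs within the Bcl2 family, 0 were called in any comparison. Over all pairs, 0.207% were called in Wobbler over wildtype and 0% in each of the other comparisons. Unadjusted p-values under 0.05 were found for 4, 0 and 1 of the 11 pairs, against 15.9%, 4.17% and 8.12% of all pairs.

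For Bad, probe 3609 lay below probe 20212 by 0.54 ± 0.21 in modifier over Wobbler (unadjusted p = 0.0271, adjusted p = 0.532). For Bcl2l1 in Wobbler over wildtype, probe 14500 exceeded probe 19935 by 1.26 ± 0.30 (unadjusted p = 0.00181, adjusted p = 0.153). It also exceeded probe 14430 by 0.89 (adjusted p = 0.217) and probe 7690 by 1.37 (adjusted p = 0.243) on that scale. Without the widest array these differences shrank to 0.86 ± 0.27 (unadjusted p = 0.00962, adjusted p = 0.226), 0.53 ± 0.28 (adjusted p = 0.455) and 0.69 ± 0.45 (adjusted p = 0.561). For Mcl1 in the same comparison, probe 17869 exceeded probe 13306 by 0.48 ± 0.17 (unadjusted p = 0.0151, adjusted p = 0.222), or by 0.53 ± 0.18 without that array. A disagreement between probes of 1 gene was therefore not established in these data, and neither was agreement.

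The 3 pairs of genotypes close a loop, so the direct ratio of modifier over wildtype can be set against the indirect one, the sum of Wobbler over wildtype and modifier over Wobbler. With the same pools on all arrays and no error, both would be equal. On Bad probe 20212 the direct ratio was 0.29 and the indirect one 1.01, a difference of -0.73 ± 0.20 (unadjusted p = 0.00493, adjusted p = 0.465). On Bcl2l1 probe 14500 they were 0.16 and 1.69, with a difference of -1.52 ± 0.46 (unadjusted p = 0.0075, adjusted p = 0.494). On Mcl1 probe 17869 they were 0.02 and 0.61, with a difference of -0.59 ± 0.18 (unadjusted p = 0.00864, adjusted p = 0.525). Without the widest array these differences were -0.86, -1.28 and -0.64, with adjusted p-values from 0.272 to 0.455.

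These 3 probes hold the 3 smallest p-values for the loop among the 13 members, and 0 of the 13 were called, against 0.0277% (5) of all probes. An unadjusted p under 0.05 was found for 3 of the 13 and for 7.59% of all probes. They are also 3 of the 4 probes with an unadjusted p under 0.05 in modifier over Wobbler and all of those in Wobbler over wildtype. The loop difference subtracts both of these ratios, so this overlap follows in part from how the difference is computed. In a model that forces the loop to close, Bad probe 20212 had ratios of 0.14 for Wobbler over wildtype, 0.53 for the modifier over wildtype and 0.39 for the modifier over Wobbler, each ± 0.14, and none was called (adjusted p = 0.685, 0.106 and 0.203). In that model the modifier over wildtype had the largest of the 3 Bad ratios, where it had the smallest with a mean fitted for each comparison. Bcl2l1 probe 14500 gave 0.39, 0.67 and 0.29 there, each ± 0.30 and not called, with the ratio of the modifier over wildtype again the largest. Bcl2 probe 19395 gave -0.18, -0.11 and 0.07 in that model, each ± 0.14 and not called. Probe 20177 of Bcl2 gave -0.18, -0.11 and 0.07, each ± 0.12 and not called.

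**Figure D4:**
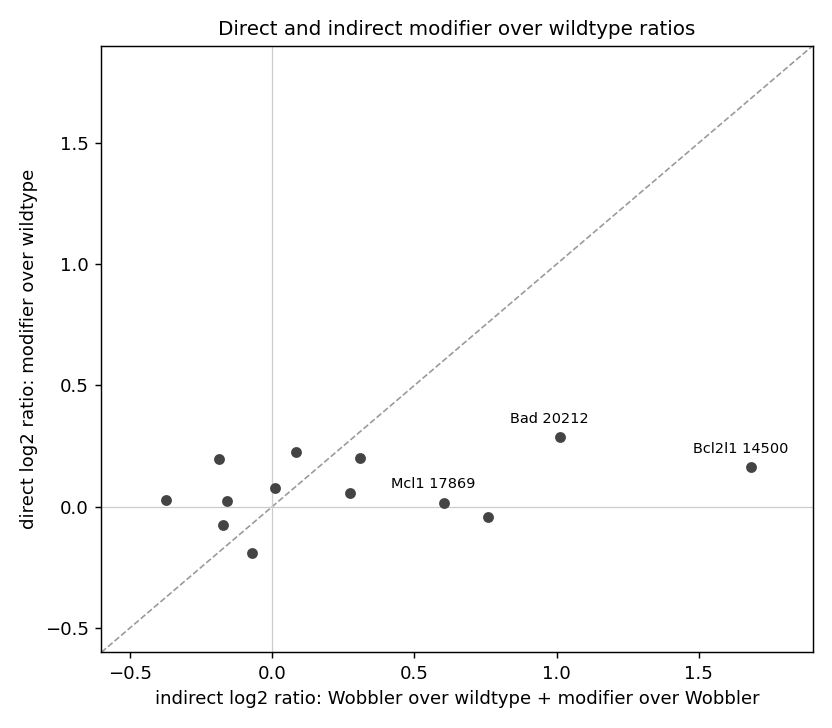
Direct log2 ratio of modifier over wildtype (y axis) against the indirect ratio (x axis), 1 point for each of the 13 tested probes, with a dashed line where both are equal. The 3 named probes have an unadjusted p under 0.05 for the difference and lie right of the line, with Bcl2l1 probe 14500 at 1.69 and 0.16.

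Before turning, the deposited ratios had a positive median on each of the 12 arrays, from 0.025 to 0.217. Such an array-wide offset enters the dye term of every probe, so the term does not measure a preference of single probes alone. The dye term was positive for 12 of the 13 members and for 81.8% of all probes. It had an unadjusted p under 0.05 for 3 members, namely Mcl1 probe 13306, Bak1 probe 4346 and Bcl2l1 probe 14430, and for 22.2% of all probes. After adjustment 0 members and 0.00554% (1) of all probes passed.

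By gene table GRCm38.p6, the span of Bad overlaps that of Gpr137, Bcl2l1 overlaps Cox4i2 and Bak1 overlaps Ggnbp1, and no probe carries the symbol of these neighbours. Probe sequences were not used here, so transcripts of overlapping genes, or splice forms such as Bcl-xL and Bcl-xS, cannot be told apart in the ratios.

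The probes whose 12 turned ratios were most like those of Bad probe 20212 were Carhsp1 probe 15141 (r = 0.94), Enc1 probe 18609 (r = 0.93) and H3f3a probe 19729 (r = 0.93), among 10382 probes of other genes with a value on all 12 arrays. The points of such a correlation share the arrays and any array-wide shift. Likeness here concerns the order of the arrays and not the sign of the ratio, since Carhsp1 read -0.41, -0.52 and -0.17 in the 3 comparisons and H3f3a -0.08, -0.23 and 0.16. None of the 3 probes was called in any comparison.

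Other genes of the pathway were taken from 5 lists of 106 genes in all, of which 62 had a tested probe, with 85 probes. Of these 85, 1 was called in Wobbler over wildtype and 0 in each comparison with the modifier, where 5 probes of modifier over wildtype and 12 of modifier over Wobbler had an unadjusted p under 0.05 in limma. In Wobbler over wildtype 18 did. Over all probes, 0.482%, 0.915% and 0.61% were called in Wobbler over wildtype, modifier over wildtype and modifier over Wobbler. An unadjusted p under 0.05 in limma was found for 16.4%, 7.78% and 12.2% of all probes. The median ratios of the 85 probes were 0.02, -0.01 and 0.05.

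The called probe was Ywhab probe 4758. Ywhab encodes a 14-3-3 protein, a class that holds phosphorylated Bad in the cytosol. Its ratio in Wobbler over wildtype was 0.72 ± 0.12, positive on all 4 arrays between 0.55 and 1.06, with an adjusted p of 0.0368. The other probes of Ywhab, 5565 and 15720, gave 0.38 (adjusted p = 0.425) and 0.49 (adjusted p = 0.155). The call was kept in 3 of the 12 cases with an array left out and in 6 of 12 other settings, with adjusted p-values up to 0.136 and 0.86. Of the 24 probes for regulators of Bcl2 proteins, 8, 0 and 3 had an unadjusted p under 0.05 in the 3 comparisons, and the smallest p with the modifier belonged to Ppp3r2 probe 13490 (-0.33 ± 0.17) and Ppp3cc (0.26 ± 0.14) against wildtype and to Trp73 (1.04 ± 0.36) and Pim1 (-0.46 ± 0.17) against Wobbler. Ppp3r2 probes 8865 and 13350 gave -0.22 ± 0.13 and 0.22 ± 0.12 for the modifier over wildtype. In Wobbler over wildtype, probe 13350 gave 0.82 ± 0.15 (adjusted p = 0.0597) and probe 13490 gave 0.72 ± 0.17 (adjusted p = 0.105). Probe 8865 gave -0.25 ± 0.13 there (adjusted p = 0.37).

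Among 26 probes for other Bcl2 relatives, 0 were called with limma, and 5, 2 and 5 had an unadjusted p under 0.05 in the 3 comparisons. Bnip3l, a mitochondrial protein of the BH3-only type that also serves in mitophagy, had a ratio of -1.09 ± 0.28 in Wobbler over wildtype, negative on all 4 arrays (adjusted p = 0.125). Bnip2 probe 2160 read 0.44 ± 0.12 in that comparison (adjusted p = 0.132) and 0.40 ± 0.12 in modifier over Wobbler (adjusted p = 0.186), positive on 4 of 4 arrays each time. Probes 5291 and 13670 of Bnip2 gave 1.53 ± 0.64 and -0.19 ± 0.18 in the first of these, and 0.14 ± 0.64 and 0.18 ± 0.18 in the second. Becn1, an autophagy protein that binds Bcl2, gave 0.31 ± 0.11 on probe 10094 (adjusted p = 0.3) and 0.00 ± 0.35 on probe 3756 in modifier over Wobbler. In modifier over wildtype, Bag1, a co-chaperone that binds Bcl2, gave -1.06 ± 0.29 (adjusted p = 0.195) and Bag4 0.33 ± 0.12 on probe 19402 (adjusted p = 0.471) and 0.03 ± 0.82 on probe 16188.

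Downstream of the membrane, 11 probes for the apoptosome and mitochondrial death factors had ratios between -0.43 and 0.43. With limma 0 were called, and 2, 1 and 0 had an unadjusted p under 0.05. The smallest p in Wobbler over wildtype belonged to Aifm1 (-0.43 ± 0.17) and Vdac2 probe 5179 (-0.24 ± 0.10, where probe 307 gave 0.25 ± 0.15), and in modifier over wildtype to Apaf1, the core of the apoptosome (-0.30 ± 0.11, adjusted p = 0.434), and Vdac2 probe 307 (-0.32 ± 0.15, where probe 5179 gave -0.11 ± 0.10). Against Wobbler they were Septin4 probe 13110 (-0.28 ± 0.16, where probe 16647 gave -0.09 ± 0.18) and Vdac1 (-0.14 ± 0.14).

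Caspases and their inhibitors had 9 probes and 0 calls with limma, and 1, 0 and 2 probes had an unadjusted p under 0.05. Casp9, the caspase activated on the apoptosome, read -1.01 ± 0.42 in modifier over Wobbler, negative on 4 of 4 arrays (adjusted p = 0.367), and Birc2 probe 20218 read -1.63 ± 0.54 on 3 arrays (adjusted p = 0.305), where Birc2 probe 5715 read 0.23 ± 0.19. In Wobbler over wildtype, Birc6 read -1.31 ± 0.55 and Birc3 1.04 ± 0.53 on 3 arrays each. With the modifier over wildtype, Birc5 read -0.20 ± 0.16 and Birc2 probe 20218 -0.57 ± 0.54, where probe 5715 read -0.09 ± 0.19.

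Death receptors and their adaptors had 15 probes and 0 calls with limma, and 2 probes had an unadjusted p under 0.05 in each comparison. For modifier over wildtype, Fasl read -0.48 ± 0.16 (adjusted p = 0.306) and its receptor Fas -1.07 ± 0.48. Against Wobbler, the adaptors Fadd and Cradd probe 571 read 0.68 ± 0.24 (adjusted p = 0.286) and 0.62 ± 0.24 (adjusted p = 0.334), where Cradd probes 8661 and 16254 read 0.05 ± 0.10 and 0.09 ± 0.39. In Wobbler over wildtype, Faim, an inhibitor of death receptor signalling, read 1.14 ± 0.43 and Tradd -0.38 ± 0.16.

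**Figure D5:**
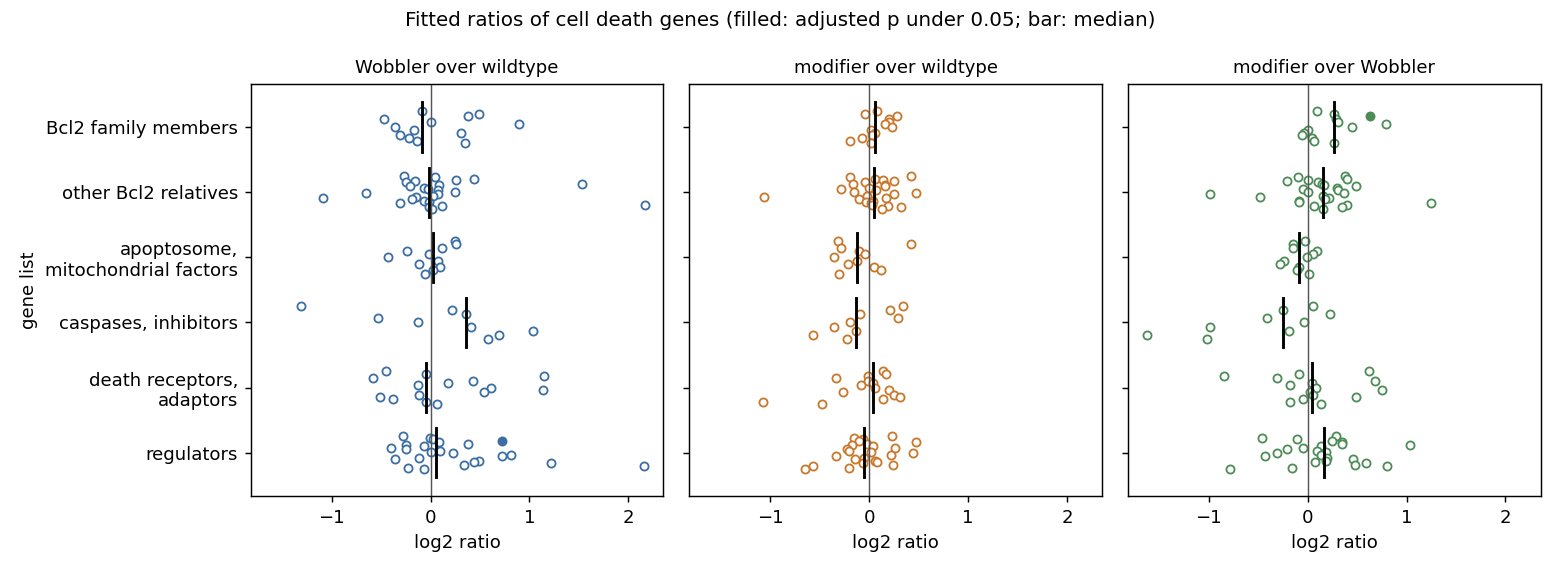
Fitted log2 ratio (x axis) of each tested probe of the Bcl2 family and of 5 lists of cell death genes (y axis), 1 panel per comparison, with a black bar at the list median and filled points where the adjusted p is under 0.05. Filled points are Ywhab in Wobbler over wildtype, at 0.72, and Bad in modifier over Wobbler, at 0.63.

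The comparison in which the Bad probe was called also held a shift of cell type markers. Of 27 probes for 22 late spermatid genes, 10 were lower in modifier over Wobbler, with a list median of -0.64 and a range from -1.76 to 0.44, and 14 were lower in modifier over wildtype, with a median of -0.97. Without replicate 2 of modifier over Wobbler 0 of the 27 were called in that comparison, and without replicate 1 of modifier over wildtype 2 were called in the other, while the medians stayed between -0.78 and -0.60 and between -1.03 and -0.83. In Wobbler over wildtype 0 were called with limma, 3 had an unadjusted p under 0.05, and the median was -0.09. Of all probes, 0.61% were called in modifier over Wobbler and 0.915% in modifier over wildtype, in either direction. Of 10 Leydig cell probes, 1 was lower in modifier over Wobbler, namely Cyp17a1, a steroid-producing enzyme of Leydig cells (-1.39 ± 0.17, adjusted p = 0.00807). The list median was -0.51, and without replicate 1 of modifier over Wobbler 0 were called. Against wildtype 2 of these 10 were lower, Cyp17a1 (-2.03 ± 0.17, adjusted p = 0.00122) and Ephx1 (-0.77 ± 0.12, adjusted p = 0.0156), the median was -0.63, and without replicate 1 of modifier over wildtype 1 was called.

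Medians of the other lists in that comparison lay closer to 0. They were 0.15 for 11 meiotic spermatocyte probes, 0.03 for 10 spermatogonial probes, 0.19 for 9 Sertoli probes, 0.18 for 15 peritubular and vessel probes, -0.18 for 9 macrophage probes and -0.07 for 5 epididymis probes. In these lists 0 probes were called with limma, while 1, 1, 3, 1, 1 and 0 had an unadjusted p under 0.05, against 12.2% of all probes. Against wildtype, Syce2 of the spermatocyte list and Tyrobp of the macrophage list were lower. As the arrays give ratios only, the tissue label could not be checked. Of the 23 late spermatid genes on the array, 22 had a probe with a value on at least 3 arrays of every comparison. So did 4 of 4 epididymis genes, and 18038 of all 20355 probes met this rule, so such counts cannot tell testis from another tissue. The part of cell composition in the Bad ratio was not tested.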

How the data were processed

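The values used are log2 ratios, 1 for each spot of each array, as deposited by the authors; how the arrays were scanned, corrected for background and normalized, and which build was used, is not given in the sources used here. That the logarithm has base 2 was inferred from repeated values at whole-number ratios. A reference pool of control animals, mentioned in the labelling protocol, has no counterpart among the channel labels, by which the samples were assigned. A repeated value near 16 on each array (22 to 165 spots) appeared to mark spots whose ratio could not be formed, and was set to missing. Ratios of replicates 3 and 4, whose dyes were exchanged per the labels, were multiplied by -1. Taken as Cy5 over Cy3, direct and indirect ratios correlated at 0.12 over probes, against 0.0004 for channel 1 over channel 2. Reversing every sign would leave this correlation the same, so it does not bear on which genotype is higher.

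Probes were kept apart and named by the platform annotation, in which 14030 had 1 symbol, 5 several and 6320 none; gene identifiers of 13994 matched the gene table GRCm38.p6 and 0 symbols changed. Probes with a value on at least 3 arrays of every comparison entered a linear model in limma (version 3.58.1, lmFit and eBayes, R version 4.3.3) that held a mean for each comparison and a dye term over all 12 arrays, so an SE reflects 1 spread per probe over all arrays. Benjamini-Hochberg adjustment ran over all 18038 probes tested within a comparison. The model was run on simulated independent noise without a dye effect, with planted changes far larger than the called Bad ratio. That run therefore does not bear on ratios of the size reported here. The number of arrays limits the precision, and without intensities spots were not filtered by signal.

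The members, the lists and the tests were chosen with earlier results of these data known. Every member probe was named; of each pathway list, every probe called in a comparison, otherwise the 2 with the smallest p; and the 3 probes most alike to a called member probe. Other probes of pathway genes, and the marker genes, were named after their values were seen. As alternatives, arrays were centred, scaled, weighted or left out, and the dye term, the filter on missing spots, the loop, the missing code, spots at whole-number ratios, averaging over probes and the direction were changed one at a time.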

Additional observations from a re-analysis of the deposited data

Results flagged for a closer look

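Of 37 sets of 4 arrays examined for the member probes, 2 held an array far from the other 3 by Dixon's criterion, which chance passes in about 1 of 20 sets. Bad probe 17810 read -0.30 in replicate 3 of modifier over wildtype, where the other arrays read 0.02 to 0.06. Bid probe 3922 read -0.18 in replicate 1 of modifier over wildtype, where the other arrays read 0.10 to 0.15. Neither ratio was called.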

How the results depend on the processing

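Of 39 member ratios, 24 kept their sign in every setting and leave-out other than the reading as channel 1 over channel 2. Among settings that kept the Cy5 over Cy3 reading, 13 sign changes occurred, that reading added 11, and leave-outs gave 20 of 468; no called ratio changed sign. The call of Bad probe 20212 in modifier over Wobbler, the 1 member call, became 0 with arrays scaled to equal spread (0.53, adjusted p = 0.0768), without the dye term (0.0952), without the filter (0.0583), in the loop model (0.203), with each comparison fitted alone (0.495), as channel 1 over channel 2 (0.05, adjusted p = 0.953), with probes averaged (0.309) and with the replicate block (0.135). It was kept with arrays centred (0.57, adjusted p = 0.0433), array weights (0.0464), probes on all 12 arrays (0.0349), the code kept (0.0437) and whole-number ratios left out (0.0445). Array weights made 1 member call in modifier over wildtype, again Bad probe 20212 (0.30, adjusted p = 0.0373).

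Over all probes, calls in Wobbler over wildtype, modifier over wildtype and modifier over Wobbler were 87, 165 and 110. Scaling gave 51 and 679 in the first and second, no dye term 37, 59 and 9, the loop model 0 (1899 unadjusted), 322 and 311, averaging 45, 108 and 61, and array weights 38 and 1038 in the first and second. Fitting each comparison alone, or reading channel 1 over channel 2, gave 0, 0 and 0 with limma, with unadjusted p-values under 0.05 for 1128, 2591 and 1651 probes in the former case and 2726, 628 and 1677 in the latter. Leaving out 1 array gave 30 to 84, 22 to 238 and 0 to 192 calls, with 0 to 1 member calls in modifier over Wobbler and 0 in the others. Centring turned the split of higher and lower calls from 40 and 47 to 57 and 45 in Wobbler over wildtype and from 43 and 67 to 38 and 120 in modifier over Wobbler. Deviations of same-numbered replicates correlated at r from -0.05 to 0.02 in 12 pairs, so no pairing by number was seen. The r values of replicates 1 and 2 nearly coincided, as did those of replicates 3 and 4, so the pairs are not separate readings. Arrays of the same comparison also correlated weakly (r from -0.01 to 0.20), so these values cannot exclude a pairing. The replicate block gave 35, 75 and 25 calls. The cause of these changes was not tested.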
